A study of Mus musculus with 28 samples.

Results

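Regulatory T cells (Tregs) with high and low surface OX40 were compared in tumors and in spleens of mice, and the values below say for each gene whether the difference between the OX40 gates was the same in both tissues. The quantity tested was the interaction, the OX40plus minus OX40minus difference in tumors less the same difference in spleens, on the log2 CPM scale. All 14 of the 14 samples of the study entered it: OX40plus and OX40minus cells from 4 tumors, and the same gates from 3 spleens. Each sample is the mean of 2 libraries, 28 in all.

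All mice were of the Foxp3-GFP strain, in which green fluorescent protein marks cells that express Foxp3, and all carried B16, a transplantable melanoma line, after an intradermal injection of 500000 cells. Tumors and spleens were taken 7 to 10 days later. OX40plus and OX40minus stand for GFP-positive cells sorted as high and low for OX40 after staining for CD45, CD3 and CD4. The spleens are thus those of tumor-bearing mice, and no group came from mice without a tumor. A mouse number ties both gates of 1 tissue to an animal, and whether the tumor and the spleen with the same number came from the same animal is not given in the sources used here.

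Tregs restrain other immune cells, and in tumors most of them have the features of recently activated cells, while a spleen also holds many resting Tregs that recirculate through blood and lymph. OX40, the product of Tnfrsf4, belongs to the TNF receptors and gives activated T cells and Tregs a costimulatory signal that runs through TRAF adaptors to the NF-kB transcription factors. Antigen contact through the T cell receptor, interferons, growth signals and tissue cues each switch on known groups of genes in T cells, and these groups are followed below through both gates and both tissues.

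The depth was 22.4 M to 29.6 M estimated counts a sample, and a value of 3 counts equals 0.104 to 0.13 CPM. The labelled cell type was present in each sample, and none of 9 Treg markers was at 0 in a group. Their summed level was 13400 to 14570 CPM in tumor OX40plus and 10880 to 11830 in tumor OX40minus samples. It was 5409 to 5837 CPM in spleen OX40plus and 3939 to 4471 in spleen OX40minus samples. Tnfrsf4, whose protein was sorted on, is 1 of the 9, so the order of the gates in this sum is not independent of the sort. Foxp3 was at 52.9, 60.7, 58.5 and 62.0 CPM in the tumor OX40plus samples of mice 1 to 4, at 39.3, 44.2, 34.3 and 49.7 in tumor OX40minus, at 32.1, 31.8 and 129.7 in the spleen OX40plus samples of mice 1 to 3 and at 41.0, 23.3 and 33.2 in spleen OX40minus. Its interaction was not called (log2 difference ± standard error, SE, of -0.17 ± 0.51, 95% interval -1.25 to 0.91), and 1 of the spleen OX40plus samples stood above the other 13. In bulk RNA of this kind, fewer cells of a type and less RNA per cell cannot be told apart.

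The transcript of the sorted protein followed the gates in both tissues, by a smaller factor in tumors. Tnfrsf4 (chromosome 4, 156013843 to 156016612, as all gene positions here from GENCODE on build GRCm38) was at 3471, 3206, 3166 and 3583 CPM in tumor OX40plus, 2159, 1862, 1964 and 1816 in tumor OX40minus, 714, 588 and 809.5 in spleen OX40plus and 298, 242 and 218 in spleen OX40minus samples. The gates did not overlap in either tissue, and the low gate of the tumor lay above the high gate of the spleen. The gate difference was log2 0.78 ± 0.11 in tumors and 1.48 ± 0.13 in spleens, and the interaction of -0.69 ± 0.17 was called (limma adjusted p = 0.0167). That call was lost without the spleen OX40minus sample of mouse 2 (-0.67, adjusted p = 0.0505), without tumor mouse 3 (-0.66, adjusted p = 0.0599) and without spleen mouse 3 (-0.49, adjusted p = 0.0699). High and low OX40 thus stand for other levels of Tnfrsf4 in tumors than in spleens, and each result below compares a gate with its own tissue's counterpart.

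Of 12512 genes tested, 1365 (10.9%) had a called interaction, 567 (4.53%) with a more positive OX40 difference in tumors and 798 (6.38%) with a more negative one. The gate difference itself was called higher in OX40plus for 2322 genes (18.6%) and lower for 2497 (20%) in tumors, and higher for 549 (4.39%) and lower for 450 (3.6%) in spleens. The spleen had 3 samples per gate against 4, and the median SE was log2 0.203 there, 0.176 in tumors and 0.269 for the interaction. Over all genes tested the median difference was -0.07 in tumors and 0.01 in spleens, and the median interaction was -0.06. The balance of directions was not stable: without spleen mouse 3, 668 genes were more positive and 572 more negative in tumors, and with factors of relative log expression 703 and 705. With the 2 gates of a mouse fitted as a pair, 960 genes had a called interaction instead of 1365. Of these, 355 were more positive in tumors instead of 567 and 605 more negative instead of 798. The count of called interactions was 462 without spleen mouse 1, 576 without spleen mouse 2, 766 without the spleen OX40plus sample of mouse 1 and 825 without the spleen OX40minus sample of mouse 2.

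Genes with a shared difference or a called interaction fell into 5 kinds, beside 38 in which the interaction was called and neither gate difference was. In 566 the gate difference was called in the same direction in both tissues with no called interaction, 309 higher and 257 lower in OX40plus. The median 95% interval of their interaction, not adjusted over genes, reached log2 0.51 to either side. Calls used adjusted p, so differences between the tissues of that size and some larger ones could go uncalled in them. In 104 the direction was shared but the interaction was called, 71 with the larger log2 difference in tumors and 33 with the larger in spleens. In 1038 the interaction was called with a gate difference called in tumors and not in spleens, and 135 were the converse. A gate difference was called in 1 tissue without a called interaction for 3061 further genes (24.5%) in tumors and for 144 (1.15%) in spleens. In 50 the gates differed in opposite directions, 36 lower in tumor OX40plus and higher in spleen OX40plus and 14 the reverse.

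A difference called in 1 tissue does not show that the other tissue had none. For 718 of the 1038 genes called in tumors only with a called interaction, the 95% interval of the spleen difference lay within 1.5-fold of no change, and for 77 of the 135 genes of the converse kind the tumor interval did. Of the 1038, 461 were higher in tumor OX40plus (98 of them by more than log2 1) and 577 lower (258 by more than log2 1). The gate differences of single mice did not overlap between tissues for 2985 of all genes tested (23.9%) and for all 50 genes of opposite direction. The same values gave both the overlap and the calls, so the first is no support of the second.

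**Figure D1:**
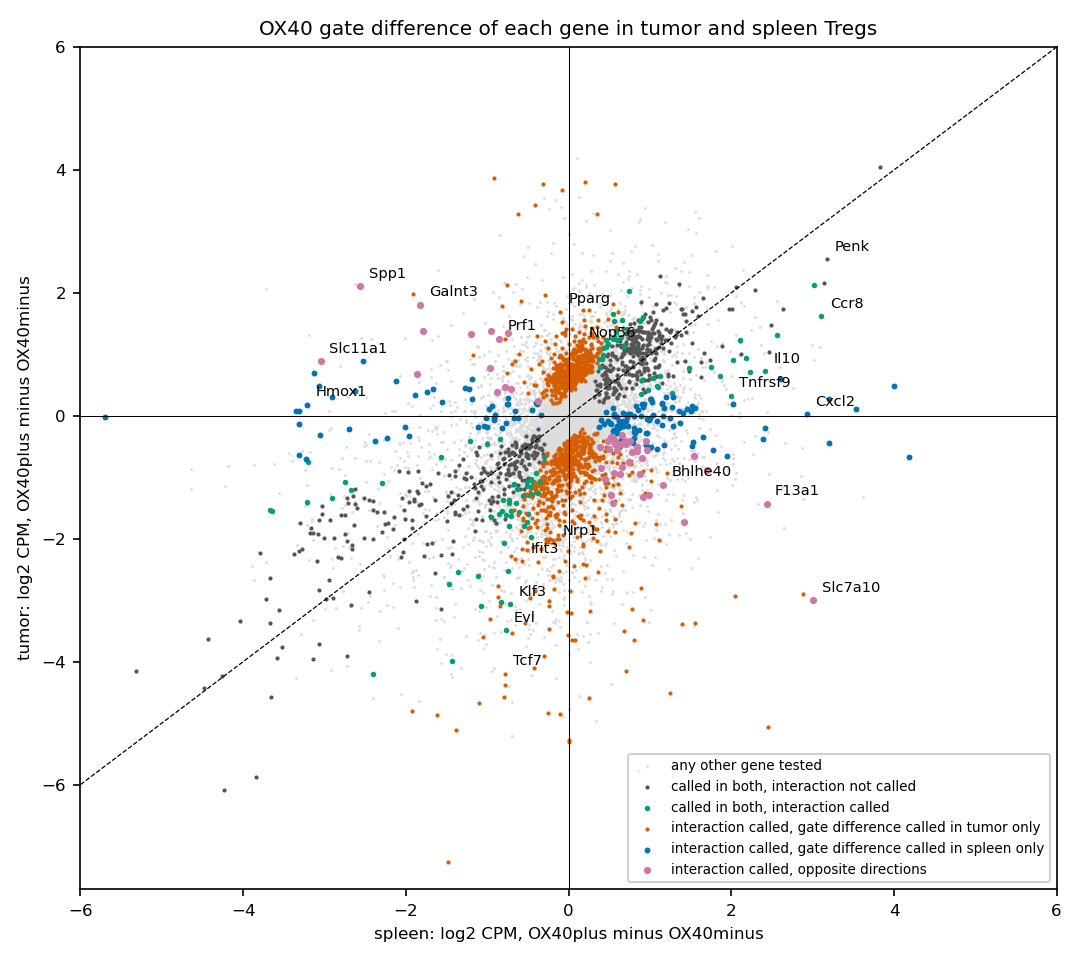
Each point is 1 of 12512 genes, placed by its log2 CPM difference between OX40plus and OX40minus Tregs in spleens (horizontal axis) and in tumors (vertical axis), and coloured by the calls of the gate differences and the interaction. The dashed line marks equal differences. The 1038 genes with a called interaction and a gate difference called in tumors only lie along the vertical axis, the 135 of the converse kind along the horizontal axis, and the 50 of opposite direction in the upper left (14) and lower right (36).

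Genes of cell division rose with OX40 in both tissues. Of 24 mitosis genes tested, all 24 rose in tumor OX40plus (median log2 1.32) and 20 rose in spleen OX40plus (median 0.79), and 1 had a called interaction. Of 21 genes of DNA replication, 20 rose in tumors (median 1.15) and 18 in spleens (median 0.83). None of the 21 had a called interaction, against 10.9% of all genes tested. The median interaction was 0.50 for mitosis and 0.25 for replication genes, against -0.06 for all genes. In single mice the mitosis median was 1.13 to 1.49 in the 4 tumors and 0.61 to 0.88 in the 3 spleens, without overlap. The replication median was 1.02 to 1.25 in tumors and 0.73 to 0.92 in spleens, also without overlap. The counts of calls thus place both lists in the shared class, and their medians were higher in tumors.

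Mki67, whose protein Ki-67 marks dividing cells, was at 306, 307, 286 and 312 CPM in tumor OX40plus, 148, 187, 125 and 130.2 in tumor OX40minus, 378, 559 and 236 in spleen OX40plus and 169, 259.7 and 223 in spleen OX40minus samples. The gates were apart in tumors and overlapped in spleens, where the difference was not called, nor was the interaction called (log2 0.27 ± 0.31, 95% interval -0.39 to 0.93). The mitosis gene with a called interaction was Ube2c, the ubiquitin-conjugating enzyme of the anaphase-promoting complex (chromosome 2, 164769898 to 164778822). It was at 232, 239.6, 259 and 298 CPM in tumor OX40plus, 83.2, 109.6, 86.8 and 73.1 in tumor OX40minus, 67.9, 88.9 and 72.1 in spleen OX40plus and 54.5, 51.1 and 39.7 in spleen OX40minus samples. The gates did not overlap in either tissue, and its interaction was log2 0.89 ± 0.21 (adjusted p = 0.0123), lost without spleen mouse 1 (0.72, adjusted p = 0.108).

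Promoters of mitosis genes often carry the cell cycle homology region (CHR), with the letters TTTGAA. The 250 bases before the start were searched on both strands in RefSeq promoters of build GRCm38.p6. Of 21 mitosis genes with a promoter in that table, 9 (42.9%) held TTTGAA, against 13.5% of the 9964 genes tested with a promoter there and 16% of all 32851 promoters of the same length. The match is a description of letters and was held by Mki67, Ube2c and by shared genes such as Cdk1, the mitotic kinase, and Top2a, a DNA topoisomerase. The stretches below show it for Ube2c, whose interaction was called, and for Cdk1 and Top2a, whose interaction was not, with TTTGAA or its complement in capitals. They lie at chr2:164769865-164769928 (plus strand), chr10:69352913-69352962 (minus strand) and chr11:99024190-99024247 (minus strand), end at the base before the start in the RefSeq promoter table and are written along the gene. That start can be of another transcript than the outermost, and the Ube2c stretch lies partly within the gene span given above.
Ube2c: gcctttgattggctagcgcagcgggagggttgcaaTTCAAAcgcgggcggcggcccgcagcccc
Cdk1: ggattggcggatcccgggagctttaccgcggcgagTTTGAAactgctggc
Top2a: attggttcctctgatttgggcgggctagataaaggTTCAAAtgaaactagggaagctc

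Genes for making ribosomes rose with OX40 in tumors, and the 1 member of their list called in spleens was Odc1, of polyamine synthesis. Of 18 ribosome biogenesis and Myc-related genes tested, all 18 rose in tumor OX40plus (median log2 0.99) and 1 rose in spleen OX40plus (median 0.15). The interaction was called more positive in tumors for 14 and more negative for 1, and its median was 0.78. Per mouse the median of the list was 0.80 to 1.04 in tumors and -0.03 to 0.36 in spleens, without overlap.

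Nop56, a core protein of the particles that modify ribosomal RNA (chromosome 2, 130274430 to 130279313), was at 274, 296, 309 and 349.6 CPM in tumor OX40plus and 137, 144, 143 and 131 in tumor OX40minus samples. In spleens it was at 159, 159 and 192 CPM in OX40plus and 167, 148 and 145 in OX40minus samples, where the gates overlapped. Its gate difference was 1.14 ± 0.09 in tumors and 0.14 ± 0.10 in spleens, with an interaction of 0.997 ± 0.14 (adjusted p = 0.000372). Tumor OX40plus Tregs were thus the group that stood apart, and the other 3 groups lay close together.

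Nop58, a partner of Nop56 in those particles, had an interaction of 1.04 ± 0.16 (adjusted p = 0.00102). Myc, the transcription factor that drives growth genes, was at 212, 207, 247 and 169.9 CPM in tumor OX40plus, 123, 112, 110.2 and 124 in tumor OX40minus, 146, 153 and 159 in spleen OX40plus and 153, 142 and 136 in spleen OX40minus samples. Its interaction of 0.73 ± 0.15 (adjusted p = 0.00543) was lost without spleen mouse 1 (0.66, adjusted p = 0.0572). The member with the negative interaction was Odc1, the first enzyme of polyamine synthesis, which rose in OX40plus in both tissues (0.62 ± 0.07 in tumors, 1.04 ± 0.09 in spleens), and its call was lost in 9 of 29 other fits, with the gates of a mouse paired among them (adjusted p = 0.0795). The letters CACGTG, an E-box that Myc can bind, were searched after these values were seen and were in the promoter window of 1 of 14 members with a promoter (7.14%), against 9.5% of genes tested with a promoter and 6.02% of all promoters.

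Among metabolic genes, those of respiration were mostly called higher in OX40plus in tumors, and few had a called interaction. Of 18 genes of oxidative phosphorylation, 14 rose in tumor OX40plus (median 0.48) and none was called in spleens (median 0.07). In 11 the tumor difference was called without a called interaction, which does not show that the tissues differed. Of all genes tested, 10.9% had a called interaction, 4.53% a more positive one. Among the 18 it was called for 3, all more positive in tumors. The calls of 2 of these, Atp5b and Cycs, were lost in 13 and 15 of 29 other fits, pairing the gates of a mouse among them (adjusted p = 0.0775 and 0.0728). The per-mouse medians of this list overlapped, since spleen mouse 3 was at 0.48 while spleen mice 1 and 2 were at -0.18 and -0.02. Of 15 glycolysis genes, 10 rose and 1 fell in tumors and 4 rose in spleens, with 3 interactions more positive and 2 more negative in tumors (median 0.10).

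Ldha, which makes lactate at the end of glycolysis (chromosome 7, 46841475 to 46855627), was at 5622, 6026, 5875 and 6346 CPM in tumor OX40plus and 3297, 3357, 3234 and 2968 in tumor OX40minus, and at 575, 573 and 600.5 in spleen OX40plus and 636, 522 and 476 in spleen OX40minus samples. The gates were far apart in tumors and overlapped in spleens, with an interaction of 0.78 ± 0.14 (adjusted p = 0.00242). Slc2a3, the glucose transporter GLUT3, differed the other way: it fell in tumor OX40plus (-0.81 ± 0.09), was -0.02 ± 0.10 in spleens and had an interaction of -0.79 ± 0.14 (adjusted p = 0.00179).

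In cholesterol synthesis, 6 of 18 genes had a called interaction, all more positive in tumors (median 0.46), and the per-mouse list medians did not overlap (0.06 to 0.30 in tumors, -0.42 to -0.22 in spleens). Sqle, the epoxidase that commits squalene to sterols (chromosome 15, 59315077 to 59331192), was at 112, 99.3, 122 and 101 CPM in tumor OX40plus, 77.6, 80.1, 90.2 and 72.6 in tumor OX40minus, 20.6, 21.2 and 21.6 in spleen OX40plus and 37.9, 32.0 and 33.9 in spleen OX40minus samples. It was higher in OX40plus in tumors and lower in spleens without overlap in either (interaction 1.14 ± 0.15, adjusted p = 0.000248). Idi1, an isomerase earlier in the pathway, rose in tumor OX40plus (0.60 ± 0.11) and had an interaction of 0.88 ± 0.18 (adjusted p = 0.00463).

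Interferon-induced genes fell with OX40 in tumors. Of 24 genes induced by type I interferon, 20 fell in tumor OX40plus (median log2 -1.14) and 1 fell in spleen OX40plus (median -0.30), and 15 had a called interaction, all more negative in tumors (median -0.80). Of 22 genes induced by interferon gamma, 17 fell in tumors (median -0.92) and 6 in spleens (median -0.29), with 7 called interactions, all more negative in tumors (median -0.24). The per-mouse medians did not overlap for either list: type I genes were at -1.34 to -0.80 in tumors and -0.36 to -0.10 in spleens.

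Ifit3, an antiviral protein that interferon induces, with a close copy whose reads may be shared (chromosome 19, 34583531 to 34588731), was at 51.6, 29.9, 36.6 and 41.8 CPM in tumor OX40plus and 187, 167, 249.6 and 215 in tumor OX40minus samples. In spleens it was at 142, 155 and 159 CPM in OX40plus and 271, 245 and 171 in OX40minus samples. Tumor OX40plus was the low group, and its samples did not overlap with any other. The spleen gates were also apart, but their difference of -0.57 ± 0.19 was not called, against -2.37 ± 0.17 in tumors. The interaction was -1.80 ± 0.26 (adjusted p = 0.000494). Oas1a, a sensor of double-stranded RNA with near-identical neighbours, was -0.95 ± 0.11 in tumors and -0.01 ± 0.12 in spleens, with an interaction of -0.94 ± 0.16 (adjusted p = 0.00197).

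Among genes that interferon gamma induces, Cd274, which encodes the inhibitory ligand PD-L1 (chromosome 19, 29367455 to 29388095), was at 124, 115, 92.0 and 99.9 CPM in tumor OX40plus and 260.1, 284, 264 and 261 in tumor OX40minus samples. Its spleen values of 108, 110.3 and 93.6 CPM in OX40plus and 118, 139 and 104 in OX40minus samples overlapped, and the interaction was -1.11 ± 0.16 (adjusted p = 0.00057). Gbp8, a guanylate-binding protein, had an interaction of -1.36 ± 0.14 (adjusted p = 3.96e-05) and Cxcl10, an interferon-induced chemokine, one of -2.07 ± 0.30 (adjusted p = 0.000632). Irf7, the transcription factor that amplifies the type I response, was the gene of the type I list called lower in both tissues (-1.29 ± 0.10 in tumors, -0.45 ± 0.12 in spleens). It still had a called interaction of -0.84 ± 0.16 (adjusted p = 0.00318). Summed levels of 9 dendritic cell markers were 158.8 to 248.3 CPM in tumor OX40plus and 437.1 to 586.7 in tumor OX40minus samples. In spleens they were 164.8 to 285.2 CPM in OX40plus and 216 to 250.9 in OX40minus samples. Cd74 alone, 1 of these markers, averaged 149, 325, 173 and 177 CPM in these groups, in the same order. The part of these markers in the interferon values was not tested.

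The interferon-stimulated response element holds the letters GAAANNGAA. In the 250 bases before the start, on either strand, it was found in 8 of 16 type I genes with a promoter in the RefSeq table (50%), in 7.75% of genes tested with a promoter there and in 7.13% of all 32851 promoters. Of the 10 such genes with a called interaction and an OX40 difference called in tumors only, 7 (70%) held it. Ifit2 and Cmpk2, lower in tumor OX40plus without a called interaction, did not hold it. Nor did Irf7, Oasl1, Oasl2 and Xaf1, whose interactions were called. The stretches below show it for 4 of these 7, Ifit1, Ifit3, Oas1a and Rsad2, and for Bst2, which held it but had no called gate difference (tumor -0.21, spleen -0.30). All lie before the start in the RefSeq promoter table of build GRCm38.p6 and are written along the gene, with each match or its complement in capitals, and overlapping matches run together. They are chr19:34640770-34640848 (plus strand), chr19:34583392-34583470 (plus), chr5:120907526-120907574 (minus), chr12:26456528-26456606 (minus) and chr8:71537553-71537631 (minus).
Ifit1: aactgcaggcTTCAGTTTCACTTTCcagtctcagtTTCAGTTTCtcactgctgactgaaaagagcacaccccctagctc
Ifit3: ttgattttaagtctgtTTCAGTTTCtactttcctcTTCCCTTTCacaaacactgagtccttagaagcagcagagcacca
Oas1a: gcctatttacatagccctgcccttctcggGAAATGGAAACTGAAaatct
Rsad2: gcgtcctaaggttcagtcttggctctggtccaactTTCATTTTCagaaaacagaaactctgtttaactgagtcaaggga
Bst2: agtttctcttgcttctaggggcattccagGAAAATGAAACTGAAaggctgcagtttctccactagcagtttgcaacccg

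**Figure D2:**
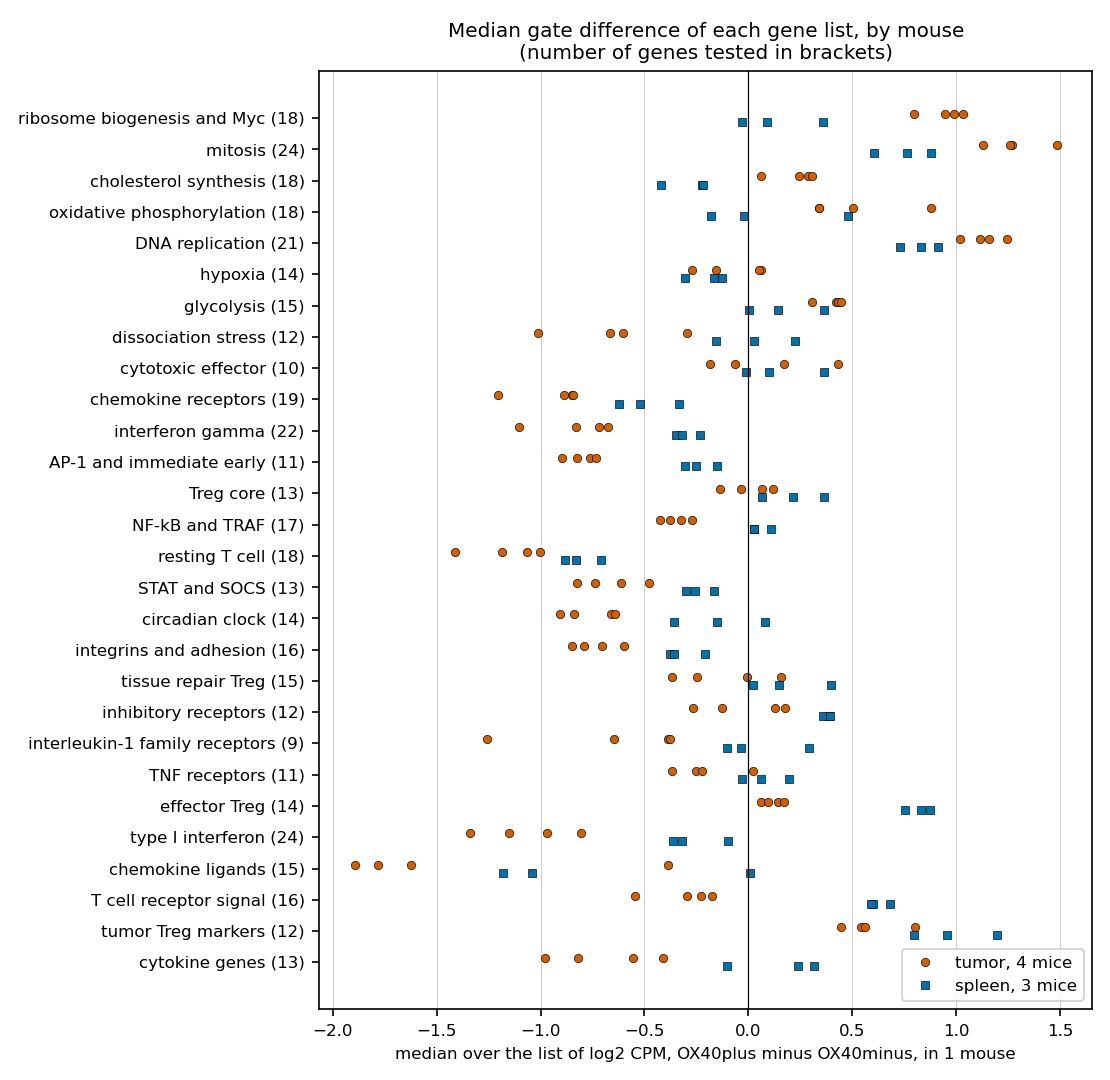
Median log2 CPM difference between OX40plus and OX40minus over the tested members of 28 gene lists, with 1 circle for each of 4 tumors and 1 square for each of 3 spleens. Lists are ordered by their median interaction. The T cell receptor list is below 0 in every tumor and above 0 in every spleen, and the ribosome list is at 0.80 to 1.04 in tumors against -0.03 to 0.36 in spleens.

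The list of genes that follow T cell receptor signals had a median below 0 in tumors and above 0 in spleens. Of 16 tested, 8 rose and none fell in spleen OX40plus (median log2 0.64), while 1 rose and 7 fell in tumor OX40plus (median -0.36). The interaction was called more negative in tumors for 10 and more positive for 1, Myc (median -0.87). Of these 11, 3 were called in opposite directions (Nr4a1, Nr4a3 and Dusp5), 4 in tumors only and 4 in spleens only. Per mouse the list median was -0.54 to -0.18 in tumors and 0.59 to 0.68 in spleens.

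Nr4a1, an orphan nuclear receptor that rises within hours of T cell receptor contact (chromosome 15, 101254269 to 101274795), was at 629, 710.1, 641 and 446 CPM in tumor OX40plus and 688, 970.5, 901 and 763 in tumor OX40minus, and at 417, 337 and 474 in spleen OX40plus and 261, 216 and 271 in spleen OX40minus samples. The tumor gates overlapped and the spleen gates did not. Its gate difference was called lower in tumors (-0.46 ± 0.15) and higher in spleens (0.71 ± 0.17), with an interaction of -1.17 ± 0.23 (adjusted p = 0.00396). Its relative Nr4a3 was -0.42 ± 0.15 in tumors and 0.95 ± 0.17 in spleens (interaction -1.36 ± 0.23, adjusted p = 0.00151). Cd69, an early activation marker that also holds T cells in tissue, fell in tumor OX40plus (-1.04 ± 0.10) and was -0.14 ± 0.12 in spleens (interaction -0.90 ± 0.16, adjusted p = 0.00214).

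Bhlhe40, a transcription factor induced by T cell receptor signals and part of the circadian system (chromosome 6, 108660629 to 108666925), showed the change of sign in full. It was at 199.6, 214, 217 and 191.7 CPM in tumor OX40plus and 380.2, 479, 564 and 386 in tumor OX40minus samples, and at 61.4, 43.3 and 62.1 in spleen OX40plus and 25.3, 23.5 and 25.02 in spleen OX40minus samples. No overlap of the gates was seen in either tissue, OX40plus being the lower in tumors and the higher in spleens. The gate differences of -1.12 ± 0.13 and 1.16 ± 0.15 gave an interaction of -2.28 ± 0.20 (adjusted p = 6.95e-06).

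Downstream of OX40 and other TNF receptors, NF-kB and TRAF genes had 6 called interactions among 17, all more negative in tumors (median -0.38). In tumors 10 of the 17 fell and 1 rose in OX40plus, and in spleens 2 rose and none fell. Nfkbid, an atypical inhibitor of NF-kB that induced cells make (chromosome 7, 30421732 to 30428746), was at 154, 189, 199 and 145 CPM in tumor OX40plus, 277, 373, 354 and 306 in tumor OX40minus, 115, 103 and 132 in spleen OX40plus and 82.7, 74.0 and 79.7 in spleen OX40minus samples. In neither tissue did the gates overlap, and they differed in opposite directions (interaction -1.50 ± 0.18, adjusted p = 0.000129). Nfkbiz, a related nuclear regulator, fell in tumor OX40plus (-1.16 ± 0.12) and was 0.01 ± 0.14 in spleens (interaction -1.16 ± 0.18, adjusted p = 0.000971).

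AP-1 and immediate early genes had 4 called interactions among 11, all more negative in tumors (median -0.32), and 8 of the 11 fell in tumor and 3 in spleen OX40plus. Fos, an AP-1 subunit made within minutes of a stimulus, was at 459, 382, 474 and 436 CPM in tumor OX40plus, 1128, 1207, 1382 and 1378 in tumor OX40minus, 159, 114 and 147 in spleen OX40plus and 181, 156 and 169 in spleen OX40minus samples. The gates were apart in tumors and overlapped in spleens (interaction -1.26 ± 0.16, adjusted p = 0.000248). Its paralog Fosb had an interaction of -2.17 ± 0.30 (adjusted p = 0.00042). Fos and Jun genes also respond to tissue digestion. Of 12 genes on a list of dissociation stress, 3 had a more negative and 3 a more positive interaction in tumors (median -0.12). The per-mouse medians of that list did not overlap (-1.01 to -0.29 in tumors, -0.16 to 0.22 in spleens). The part of digestion in these values was not tested. Dusp1, a phosphatase of that list which switches off MAP kinases, was -0.75 ± 0.12 in tumors and 0.74 ± 0.14 in spleens (interaction -1.49 ± 0.18, adjusted p = 0.000129).

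On the log2 scale, genes of activated Tregs differed more between the gates in spleens than in tumors. Of 14 effector Treg genes, 11 rose and none fell in spleen OX40plus (median log2 0.83), whereas 4 rose and 2 fell in tumor OX40plus (median 0.15). The interaction was called for 8, all more negative in tumors (median -0.74). Of 12 markers of tumor Tregs, 9 rose in spleens and 7 in tumors, 2 fell in tumors, and 8 had a called interaction, all more negative in tumors (median -0.999). Per-mouse medians did not overlap for the effector list (0.06 to 0.17 in tumors, 0.76 to 0.87 in spleens) and overlapped for the tumor Treg list (0.45 to 0.80 against 0.80 to 1.20).

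Il10, an inhibitory cytokine (chromosome 1, 131019845 to 131024974), was at 473, 466, 418 and 526 CPM in tumor OX40plus and 301, 318, 275 and 245 in tumor OX40minus, and at 65.4, 47.5 and 50.6 in spleen OX40plus and 12.1, 10.7 and 7.95 in spleen OX40minus samples. The gates did not overlap in either tissue, and the order of the groups ran from tumor OX40plus down to spleen OX40minus with no overlap between neighbours. On the log2 scale the gate difference was 0.73 ± 0.13 in tumors and 2.41 ± 0.16 in spleens (interaction -1.69 ± 0.21, adjusted p = 0.000129), although the difference in CPM was larger in tumors.

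Ccr8, the receptor for the chemokine CCL1 and a marker of Tregs in tumors (chromosome 9, 120092114 to 120094906), had the same order, at 1089.8, 1194, 1054 and 931 CPM in tumor OX40plus, 371, 397, 298 and 323 in tumor OX40minus, 96.3, 74.0 and 82.7 in spleen OX40plus and 10.5, 9.66 and 8.94 in spleen OX40minus samples. Its interaction was -1.48 ± 0.17 (adjusted p = 6.68e-05). Among the 33 genes of shared direction with the larger log2 difference in spleens, 19 had the larger difference in CPM in tumors, so the order of the tissues depends on the scale for these. Among the 71 with the larger log2 difference in tumors, 13 had the larger difference in CPM in spleens.

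Tnfrsf9, the costimulatory receptor 4-1BB (chromosome 4, 150914562 to 150946102), was at 3383, 2992, 3041 and 3480.5 CPM in tumor OX40plus and 2808, 2338, 2613 and 2532 in tumor OX40minus, and at 499, 399 and 515 in spleen OX40plus and 125, 111 and 117 in spleen OX40minus samples. The gates did not overlap in either tissue, both tumor gates lay above both spleen gates, and the gates were closer in tumors on the log2 scale (0.33 ± 0.09 in tumors, 1.996 ± 0.11 in spleens, interaction -1.67 ± 0.14, adjusted p = 6.95e-06). Icos, another costimulatory receptor, was 0.19 ± 0.08 in tumors and 0.90 ± 0.10 in spleens (interaction -0.71 ± 0.13, adjusted p = 0.00251). Ctla4, the inhibitory receptor by which Tregs strip costimulatory ligands from other cells, was 0.16 ± 0.08 and 0.83 ± 0.10 (interaction -0.67 ± 0.13, adjusted p = 0.00346).

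Klrg1, a receptor of terminally differentiated Tregs (chromosome 6, 122270596 to 122282882), was at 378, 299, 337 and 396 CPM in tumor OX40plus and 339, 300.3, 340.4 and 281 in tumor OX40minus samples, which overlapped, and at 184, 127 and 161 in spleen OX40plus and 54.7, 58.0 and 50.5 in spleen OX40minus samples, which did not (interaction -1.36 ± 0.18, adjusted p = 0.000241). Cd200r1, an inhibitory receptor, had an interaction of -1.34 ± 0.19 (adjusted p = 0.000526) and a difference called in spleens only. Gata3, a transcription factor of type 2 and tissue Tregs, fell in tumor OX40plus (-0.51 ± 0.09) and rose in spleen OX40plus (0.39 ± 0.10), with an interaction of -0.89 ± 0.13 (adjusted p = 0.000708).

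Other activation genes were higher in OX40plus in both tissues. Penk, which encodes an opioid precursor, rose by log2 2.55 ± 0.20 in tumors and 3.17 ± 0.23 in spleens, and its interaction was not called (95% interval -1.26 to 0.01). Lag3, an inhibitory receptor, rose by 1.71 ± 0.20 in tumors and 1.51 ± 0.23 in spleens, with an interval of -0.44 to 0.83. Il1r2, a decoy receptor for interleukin-1, rose in both (2.13 ± 0.15 and 3.01 ± 0.17) with a called interaction of -0.88 ± 0.22 (adjusted p = 0.0195). That call was lost in 7 of 29 other fits, which left out the spleen OX40plus sample of mouse 1 (adjusted p = 0.0635), the spleen OX40minus sample of mouse 2 (0.061), tumor mouse 2 (0.0536), tumor mouse 3 (0.0659) or spleen mouse 3 (0.0738), or used log2(CPM + 1) (0.053) or precision weights (0.0748).

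Il2ra, the high-affinity interleukin-2 receptor chain on which Tregs depend (chromosome 2, 11642807 to 11693193), went the other way. It was at 1552, 1427, 1399 and 1616 CPM in tumor OX40plus and 1003, 884, 993 and 1013 in tumor OX40minus, and at 849.7, 838 and 663 in spleen OX40plus and 939, 906 and 798 in spleen OX40minus samples. The gates were apart in tumors, where OX40plus was higher, and overlapped in spleens (interaction 0.80 ± 0.14, adjusted p = 0.00255). Of 13 core Treg genes, 1 had a more positive interaction in tumors, which was Il2ra, and 4 a more negative one (median -0.37). Nrp1, a semaphorin receptor of thymus-derived Tregs (chromosome 8, 128358604 to 128503363), was at 50.8, 43.7, 57.2 and 39.4 CPM in tumor OX40plus and 187, 198, 198 and 213 in tumor OX40minus samples, and at 167, 155 and 132 in spleen OX40plus and 146, 170.3 and 198 in spleen OX40minus samples. The tumor OX40plus samples stood below all others, and the interaction was -1.89 ± 0.19 (adjusted p = 1.89e-05).

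Interactions in families of receptors were mostly negative. Of 11 TNF receptors other than Tnfrsf4, 6 had a called interaction, all more negative in tumors (median -0.74). These included Tnfrsf8, which encodes CD30 and rose in both tissues (1.32 ± 0.12 in tumors, 2.56 ± 0.14 in spleens, interaction -1.24 ± 0.19, adjusted p = 0.000708). Among 12 inhibitory receptors 5 interactions were more negative and 1 more positive in tumors (median -0.63), and among 9 receptors of the interleukin-1 family 5 were more negative and none more positive (median -0.66). Il18rap, a chain of the interleukin-18 receptor, fell in tumor OX40plus (-1.61 ± 0.20) and was 0.16 ± 0.23 in spleens (interaction -1.77 ± 0.31, adjusted p = 0.00198).

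**Figure D3:**
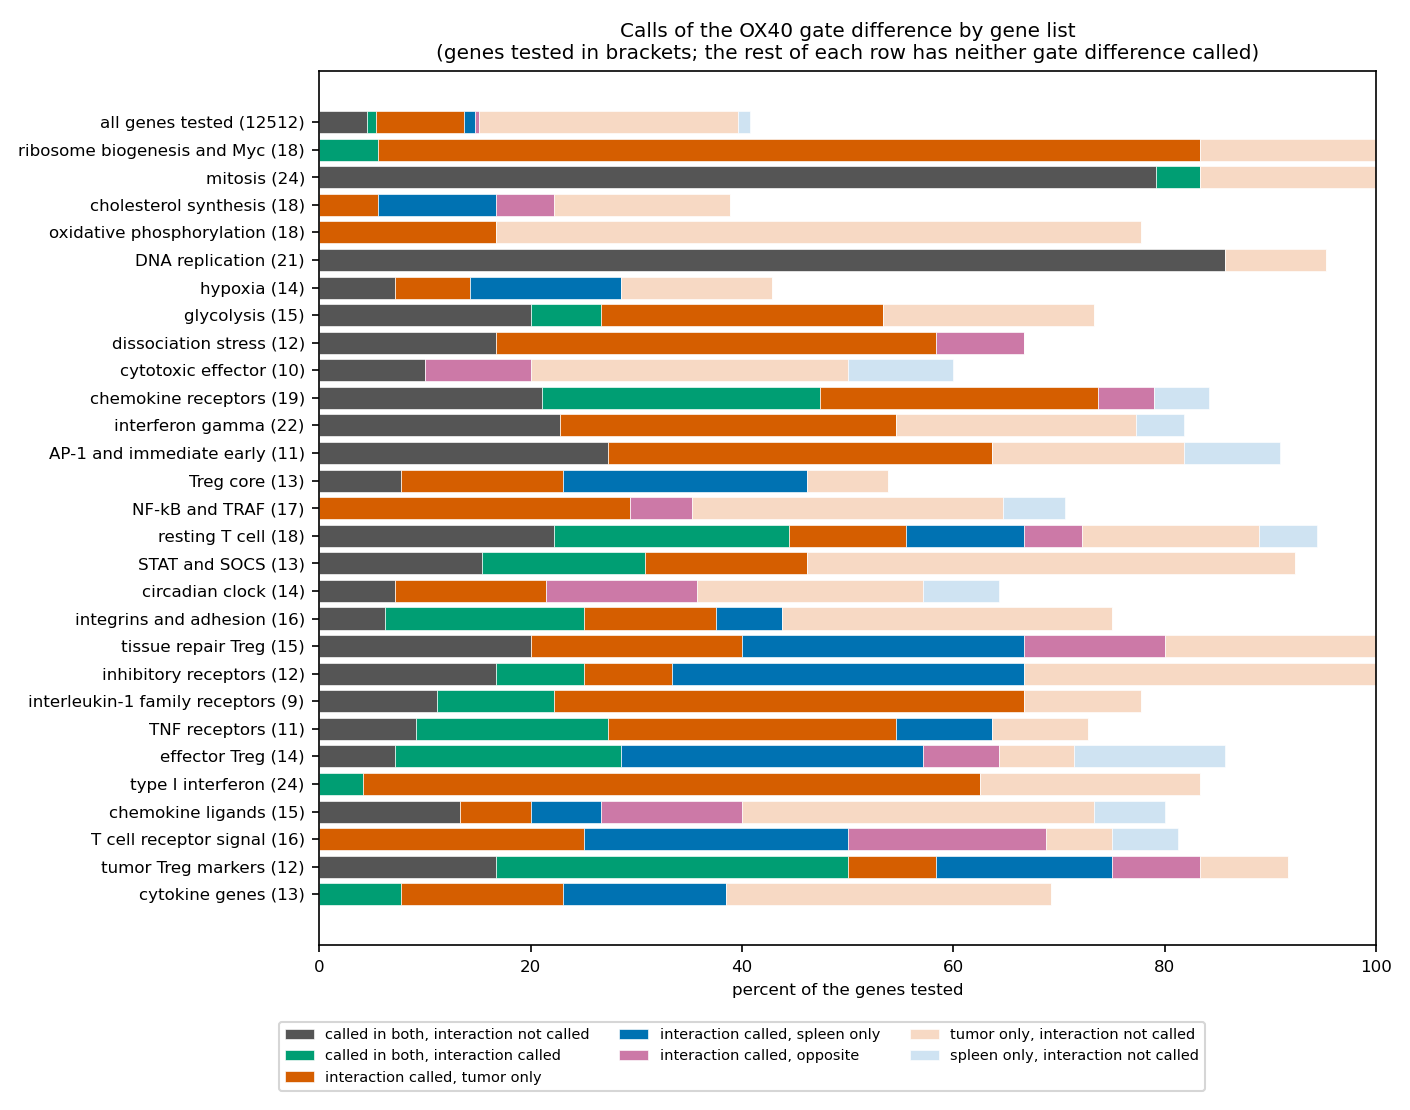
Share of the tested genes of 28 lists, and of all 12512 genes tested (top row), by the calls of the OX40 gate difference in tumors and spleens and of the interaction. The mitosis and DNA replication rows are mostly genes called in both tissues without a called interaction (19 of 24 and 18 of 21), and the ribosome and type I interferon rows are mostly genes called in tumors only with a called interaction (14 of 18 and 14 of 24).

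Resting T cell genes fell with OX40 in both tissues, and the size of the fall separated them. Of 18 tested, 13 fell and 1 rose in tumor OX40plus (median log2 -1.18) and 12 fell and none rose in spleen OX40plus (median -0.76). The interaction was more negative in tumors for 6 and more positive for 3 (median -0.40). Klf3, a factor of quiescent T cells (chromosome 5, 64803388 to 64832901), was at 20.4, 14.5, 13.1 and 12.7 CPM in tumor OX40plus and 106, 124, 130.2 and 138 in tumor OX40minus, and at 227, 229.9 and 198 in spleen OX40plus and 304, 353 and 424 in spleen OX40minus samples. OX40plus was lower in both tissues without overlap, with log2 differences of -3.06 ± 0.14 in tumors and -0.71 ± 0.17 in spleens (interaction -2.35 ± 0.22, adjusted p = 1.26e-05), and the difference in CPM was larger in spleens.

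Tcf7, which encodes the memory and resting T cell factor TCF1 (chromosome 11, 52252371 to 52283014), was at 1.56, 3.05, 2.28 and 0.606 CPM in tumor OX40plus and 28.8, 25.2, 39.9 and 28.1 in tumor OX40minus, and at 169, 160.0 and 191 in spleen OX40plus and 337, 283 and 275 in spleen OX40minus samples. All 4 groups were separate, with the lowest values in tumor OX40plus. The spleen difference of -0.78 ± 0.39 was not called and the tumor difference was -4.19 ± 0.33 (interaction -3.41 ± 0.51, adjusted p = 0.000728). Klf2, which keeps T cells recirculating, fell in both tissues (-2.61 ± 0.15 and -1.12 ± 0.17, interaction -1.49 ± 0.23, adjusted p = 0.000889).

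Resting genes with a more positive interaction in tumors included Satb1 and Txk. Satb1, a chromatin organiser of T cell development (chromosome 17, 51736187 to 51833290), was at 324, 330.2, 280.1 and 265 CPM in tumor OX40plus and 191, 179, 159 and 169 in tumor OX40minus, and at 167, 185 and 130.5 in spleen OX40plus and 303, 322 and 304 in spleen OX40minus samples. OX40plus was higher in tumors and lower in spleens without overlap in either (interaction 1.74 ± 0.16, adjusted p = 1.26e-05). Txk, a kinase of the Tec family, fell in spleen OX40plus (-0.94 ± 0.12) and was 0.16 ± 0.10 in tumors (interaction 1.10 ± 0.15, adjusted p = 0.000409).

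In tumors most of the tested chemokine receptors and adhesion genes fell with OX40. Of 19 chemokine receptors, 13 fell and 2 rose in tumor OX40plus, 9 fell and 2 rose in spleen OX40plus, and 9 interactions were more negative and 2 more positive in tumors (median -0.23, and -0.73 to -0.11 over the alternatives). Ccr4, a receptor for entry into skin, fell in both (-1.97 ± 0.10 and -0.46 ± 0.12, interaction -1.51 ± 0.16, adjusted p = 3.87e-05). Cxcr3, the receptor of Th1-like Tregs for interferon-induced chemokines, fell in tumor OX40plus (-0.85 ± 0.09) and rose in spleen OX40plus (0.40 ± 0.10, interaction -1.24 ± 0.14, adjusted p = 5.18e-05). Of 16 integrins and adhesion genes, 11 fell in tumors and 5 in spleens, with 5 interactions more negative and 1 more positive (median -0.52). Itga4, the alpha 4 integrin chain, was -1.64 ± 0.17 in tumors and -0.16 ± 0.19 in spleens (interaction -1.48 ± 0.26, adjusted p = 0.00194), and Itgb1, the beta 1 chain, was -1.27 ± 0.09 and -0.46 ± 0.10 (interaction -0.80 ± 0.13, adjusted p = 0.00138).

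The 50 genes of opposite direction included several outside these lists. Galnt3, an enzyme that starts O-linked glycans (chromosome 2, 66082766 to 66124994), was at 58.6, 59.6, 52.5 and 55.9 CPM in tumor OX40plus and 17.3, 19.3, 12.9 and 15.8 in tumor OX40minus, and at 2.57, 1.89 and 1.89 in spleen OX40plus and 7.58, 8.06 and 7.13 in spleen OX40minus samples. OX40plus was the higher gate in tumors and the lower in spleens, with no overlap. The gate differences of 1.81 ± 0.17 and -1.82 ± 0.20 gave an interaction of 3.63 ± 0.26 (adjusted p = 1.72e-06), the smallest adjusted p among the genes named here.

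Prf1, which encodes the pore-forming protein perforin (chromosome 10, 61297833 to 61304680), was at 163, 233, 170.5 and 139.7 CPM in tumor OX40plus and 71.9, 85.7, 73.2 and 61.9 in tumor OX40minus, and at 9.18, 10.9 and 8.71 in spleen OX40plus and 19.0, 19.2 and 14.1 in spleen OX40minus samples, the same order as Galnt3 (interaction 2.11 ± 0.24, adjusted p = 6.99e-05). It was the 1 called interaction among 10 cytotoxic effector genes (median -0.19). Ccl3, an inflammatory chemokine (chromosome 11, 83647844 to 83649355), was at 81.7, 66.9, 85.2 and 84.4 CPM in tumor OX40plus and 25.5, 35.8, 31.9 and 28.9 in tumor OX40minus, and at 1.98, 2.23 and 4.02 in spleen OX40plus and 6.16, 5.10 and 3.997 in spleen OX40minus samples. The tumor gates were apart, and the spleen gates met at about 4 CPM (interaction 2.34 ± 0.33, adjusted p = 0.00047). Ccl4, its neighbour and close relative, was 1.35 ± 0.18 in tumors and -0.74 ± 0.21 in spleens (interaction 2.09 ± 0.28, adjusted p = 0.000301). Its spleen values of 2.33, 1.77 and 3.31 CPM in OX40plus and 4.70, 4.03 and 3.13 in OX40minus samples overlapped.

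F13a1, a coagulation factor subunit (chromosome 13, 36867178 to 37050244), was at 12.3, 11.2, 12.6 and 12.5 CPM in tumor OX40plus and 26.3, 30.8, 26.7 and 52.3 in tumor OX40minus, and at 67.0, 45.3 and 47.3 in spleen OX40plus and 9.93, 9.01 and 10.1 in spleen OX40minus samples. OX40plus was lower in tumors and higher in spleens without overlap (interaction -3.86 ± 0.30, adjusted p = 3.14e-06). Slc7a10, a transporter of small neutral amino acids (chromosome 7, 35186385 to 35201114), was at 0.0347, 0.0368, 0.476 and 0.0379 CPM in tumor OX40plus and 0.426, 1.29, 2.59 and 0.304 in tumor OX40minus, and at 15.9, 11.4 and 18.0 in spleen OX40plus and 2.23, 1.60 and 1.69 in spleen OX40minus samples. The tumor gates overlapped and the spleen gates did not. In tumors 3 of the 4 OX40plus samples were under 3 counts, so the size of the tumor difference (-2.995 ± 0.72) depends on the 0.5 added to each count. The interaction was -6.01 ± 1.10 (adjusted p = 0.00262).

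Per1, a circadian repressor, was -1.04 ± 0.10 in tumors and 0.45 ± 0.12 in spleens (interaction -1.49 ± 0.15, adjusted p = 3.19e-05), and of 14 clock genes 4 had a called interaction, all more negative in tumors (median -0.48). Spock2, a matrix proteoglycan, was -1.29 ± 0.25 and 0.99 ± 0.29 (interaction -2.28 ± 0.39, adjusted p = 0.00169), and its spleen call was just under the cut (limma adjusted p = 0.04995). Cables1, a regulator of cyclin-dependent kinases, was -1.32 ± 0.16 and 0.92 ± 0.18 (interaction -2.24 ± 0.24, adjusted p = 4.7e-05). Myo10, an unconventional myosin of filopodia, went the other way, at 1.33 ± 0.24 in tumors and -1.20 ± 0.28 in spleens (interaction 2.52 ± 0.37, adjusted p = 0.00057).

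Spp1 and Slc11a1 were also of opposite direction, and both are known from macrophages as well. Spp1, which encodes osteopontin (chromosome 5, 104435118 to 104441050), was at 32.2, 29.7, 38.3 and 15.5 CPM in tumor OX40plus and 5.04, 5.85, 5.14 and 10.7 in tumor OX40minus, and at 0.356, 0.168 and 0.0789 in spleen OX40plus and 1.08, 1.56 and 1.03 in spleen OX40minus samples. The gates did not overlap in either tissue, and the spleen values were all under 2 CPM, 1 OX40plus sample being under 3 counts (interaction 4.67 ± 0.60, adjusted p = 0.000215). Slc11a1, a metal transporter of phagocytes, was 0.89 ± 0.26 in tumors and -3.04 ± 0.30 in spleens (interaction 3.93 ± 0.40, adjusted p = 2.71e-05). Summed over 10 macrophage and monocyte markers, the level was 51.96 to 67.27 CPM in tumor OX40plus, 225.9 to 344.6 in tumor OX40minus, 85.35 to 203.3 in spleen OX40plus and 792.9 to 1009 in spleen OX40minus samples, and no marker was at 0 in a group. In spleens these markers thus moved in the direction of both genes, in tumors against it, and their part in either gene's values was not tested.

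**Figure D4:**
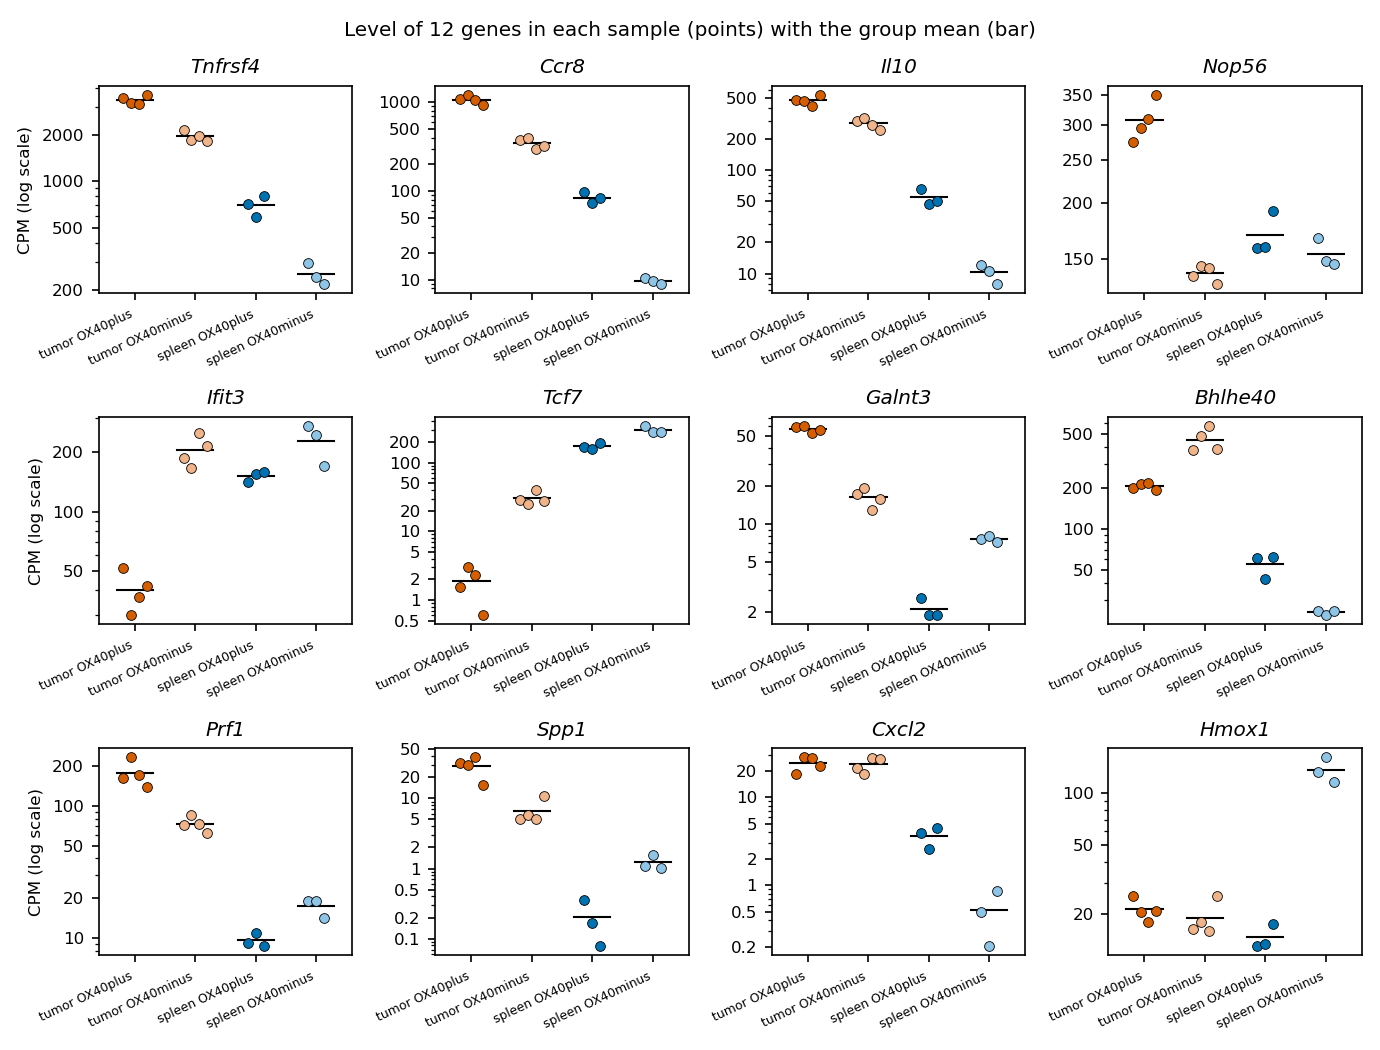
CPM of 12 genes on a log axis in the 4 tumor and 3 spleen samples of each gate (points) with the group mean (bar). Galnt3, Prf1 and Spp1 are higher in OX40plus in tumors and lower in spleens, Bhlhe40 is the reverse, tumor OX40plus stands alone for Nop56 and Ifit3, and the spleen gates alone are separate for Cxcl2 and Hmox1.

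Among genes called in tumors only, Pparg, the nuclear receptor of tissue Tregs in fat and other sites (chromosome 6, 115360951 to 115490399), was at 50.6, 61.0, 57.3 and 54.5 CPM in tumor OX40plus and 20.5, 15.5, 16.3 and 16.8 in tumor OX40minus, and at 9.41, 5.55 and 7.46 in spleen OX40plus and 7.199, 10.0 and 6.72 in spleen OX40minus samples. The tumor gates were apart and the spleen gates overlapped (interaction 1.80 ± 0.28, adjusted p = 0.000924). Cx3cr1, the fractalkine receptor, rose in tumor OX40plus (1.25 ± 0.23) and was -0.78 ± 0.27 in spleens (interaction 2.03 ± 0.35, adjusted p = 0.00194). Of 15 genes known from tissue repair Tregs, 3 had a more positive interaction in tumors (Spp1, Pparg and Pdgfb) and 6 a more negative one (median -0.62), so the list did not move 1 way.

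Falls called in tumors only reached larger sizes. St8sia6, a sialyltransferase (chromosome 2, 13651021 to 13794064), was at 1.21, 0.147, 0.260 and 0.947 CPM in tumor OX40plus and 20.3, 18.4, 17.7 and 13.7 in tumor OX40minus, and at 16.5, 15.5 and 13.5 in spleen OX40plus and 33.4, 38.5 and 47.8 in spleen OX40minus samples. The gates were separate in both tissues, but the spleen difference of -1.38 ± 0.52 was not called (interaction -3.73 ± 0.69, adjusted p = 0.00283). Slc28a2b, a close copy of a nucleoside transporter with which it may share reads, was -4.68 ± 0.43 in tumors and -1.10 ± 0.49 in spleens (interaction -3.58 ± 0.65, adjusted p = 0.00254). Both genes were thus lower in spleen OX40plus as well, without a call at the SE of the spleen.

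Where both tissues were called in 1 direction, Evl, an actin regulator (chromosome 12, 108554720 to 108688516), was at 3.74, 3.13, 5.58 and 4.13 CPM in tumor OX40plus and 40.0, 46.2, 56.4 and 40.6 in tumor OX40minus, and at 263, 261 and 299 in spleen OX40plus and 517, 462 and 429 in spleen OX40minus samples. OX40plus was lower in both without overlap, with log2 differences of -3.49 ± 0.16 in tumors and -0.77 ± 0.18 in spleens (interaction -2.71 ± 0.24, adjusted p = 6.95e-06), although the difference in CPM was larger in spleens. Pik3ip1, an inhibitor of PI3 kinase, was -3.03 ± 0.19 and -0.83 ± 0.22 (interaction -2.19 ± 0.29, adjusted p = 0.00024), and Prg4, the lubricant glycoprotein lubricin, was -3.98 ± 0.29 and -1.43 ± 0.33 (interaction -2.55 ± 0.44, adjusted p = 0.00186).

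Among differences called in spleens only, some genes fell in OX40plus. Hmox1, the heme-degrading enzyme (chromosome 8, 75093621 to 75100589), was at 25.5, 20.6, 17.9 and 20.9 CPM in tumor OX40plus and 16.4, 17.9, 15.9 and 25.5 in tumor OX40minus, and at 13.1, 13.5 and 17.5 in spleen OX40plus and 133, 161 and 115 in spleen OX40minus samples. The spleen OX40minus samples stood above all others (interaction 3.40 ± 0.26, adjusted p = 3.14e-06). Trpm2, a calcium channel (-3.13 ± 0.43 in spleens, interaction 3.82 ± 0.57, adjusted p = 0.00069), Ptgs1, a prostaglandin synthase (-3.07 ± 0.37, interaction 3.56 ± 0.49, adjusted p = 0.000376) and Cd63, a lysosomal tetraspanin (-3.31 ± 0.37, interaction 2.68 ± 0.48, adjusted p = 0.00246), also fell in spleen OX40plus. Hmox1 is known for its high level in the red pulp macrophages of the spleen, the 10 macrophage markers summed to 792.9 to 1009 CPM in spleen OX40minus against 85.35 to 203.3 in spleen OX40plus samples, and their part in these values was not tested.

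The macrophage markers themselves fell in OX40plus in both tissues, 9 of 10 in tumors (median log2 -2.81) and 9 of 10 in spleens (median -3.38), and 1, Cd68, had a called interaction. C1qc, a chain of complement C1q, was at 0.866, 3.91, 2.03 and 0.379 CPM in tumor OX40plus, 18.4, 22.2, 11.3 and 30.1 in tumor OX40minus, 7.24, 5.84 and 12.6 in spleen OX40plus and 93.0, 118 and 84.8 in spleen OX40minus samples. OX40minus was higher in both tissues, and the interaction was not called (95% interval -2.12 to 1.42). Cd68, a lysosomal protein of phagocytes, was -1.07 ± 0.21 in tumors and -2.75 ± 0.24 in spleens (interaction 1.68 ± 0.32, adjusted p = 0.00338). Genes such as Clec7a, a receptor for fungal glucans on myeloid cells, fell in both with the larger difference in spleens (-0.75 ± 0.27 and -3.21 ± 0.31, interaction 2.46 ± 0.41, adjusted p = 0.00144).

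Others of the genes called in spleens only rose in OX40plus. Cxcl2, a chemokine for neutrophils (chromosome 5, 90903871 to 90905938), was at 18.3, 28.4, 28.2 and 22.6 CPM in tumor OX40plus and 21.6, 18.6, 27.9 and 26.9 in tumor OX40minus, and at 3.95, 2.56 and 4.46 in spleen OX40plus and 0.5005, 0.206 and 0.865 in spleen OX40minus samples. The tumor gates overlapped at a higher level than either spleen gate, and the spleen gates were apart (interaction -2.90 ± 0.55, adjusted p = 0.00335). Bcar1, an adaptor of integrin signals (chromosome 8, 111710474 to 111743809), repeated this form at 23.5, 19.5, 22.4 and 20.7 CPM in tumor OX40plus, 19.7, 20.4, 19.7 and 15.7 in tumor OX40minus, 6.49, 4.92 and 5.15 in spleen OX40plus and 1.52, 0.993 and 1.64 in spleen OX40minus samples (interaction -1.83 ± 0.30, adjusted p = 0.00145). Ky, a muscle-associated protein (1.52 ± 0.26 in spleens, interaction -2.01 ± 0.35, adjusted p = 0.00179), and Frmd5, a membrane adaptor (1.17 ± 0.21, interaction -1.65 ± 0.28, adjusted p = 0.00169), rose in spleen OX40plus as well.

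Cytokines and their signalling completed the lists. Of 13 cytokine genes, 5 had a more negative interaction in tumors and none a more positive one (median -1.63, and -1.78 to -0.71 over the alternatives). Of 15 chemokine ligands 2 were more negative and 2 more positive (median -0.86, and -1.28 to -0.25 over the alternatives). Of 13 STAT and SOCS genes, 12 fell in tumor and 4 in spleen OX40plus, with 4 interactions, all more negative in tumors (median -0.44). Stat4, which relays interleukin-12, was -1.73 ± 0.09 in tumors and -0.52 ± 0.11 in spleens (interaction -1.22 ± 0.14, adjusted p = 0.000111), and Cish, a feedback inhibitor of interleukin-2 signals, was -0.63 ± 0.09 and 0.29 ± 0.11 (interaction -0.92 ± 0.14, adjusted p = 0.000889). Of 14 hypoxia genes 3 had a more positive interaction (median 0.18, and -0.05 to 0.23 over the alternatives, so that its sign was not stable), among them Ndrg1, a hypoxia-induced stress protein, which fell in spleen OX40plus (-0.76 ± 0.12) and was 0.19 ± 0.10 in tumors (interaction 0.95 ± 0.16, adjusted p = 0.00147).

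The same counts for markers of further cell types follow, and 10.9% of all genes tested had a called interaction. Of 9 dendritic cell markers 7 fell in tumor OX40plus and none was called in spleens, with 3 interactions, all more negative in tumors (median -1.42). Of 10 NK cell markers 7 fell in tumors and 1 in spleens, with 1 called interaction (median -0.91, and -1.34 to -0.29 over the alternatives), and their summed level was 30.16 to 45.15 CPM in tumor OX40plus, 85.1 to 124.3 in tumor OX40minus, 27.78 to 47.97 in spleen OX40plus and 59.69 to 80.81 in spleen OX40minus samples. Neutrophil markers (1 interaction among 7, median -0.42, and -1.66 to 0.28 over the alternatives) included Mmp9, a gelatinase, at -3.10 ± 0.24 in tumors and -1.08 ± 0.27 in spleens (interaction -2.02 ± 0.36, adjusted p = 0.00223), and their sum was 20.09 to 46.78 CPM in tumor OX40plus against 190.6 to 270.1 in tumor OX40minus samples, and 34.15 to 38.28 in spleen OX40plus against 60.52 to 78.35 in spleen OX40minus samples. Most of the tumor sums was Mmp9 itself, at 42.1, 18.1, 29.9 and 16.2 CPM in tumor OX40plus and 202, 185, 259 and 205 in tumor OX40minus samples. CD8 T cell markers had 1 called interaction among 2. None was called among 6 B cell, 7 melanoma, 7 fibroblast, 5 endothelial, 6 erythroid or platelet and 1 keratinocyte markers, and B cell markers summed to under 4.4 CPM in every tumor sample and to 354.6 to 522.3 CPM in spleen samples. The part of these cells in the gate differences was not tested.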

How the data were processed

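RNA of sorted Tregs was sequenced as 28 libraries of 14 samples (RNeasy Micro extraction and TruSeq libraries, per the labels' protocols). The authors deposited log2 CPM values of 13103 genes; bcl2fastq 2.19, kallisto, limma and the mouse build mm10 are named, per the submitters' processing notes. For the step from transcripts to genes, the scaling factor and the strand setting, nothing is given in the sources used here, so overlapping and antisense genes may share reads. The values have the form in which 0.5 count is added to each count before division by a scaled library size, which compresses differences of low genes. The counts are estimates, and the depth of 22.4 M to 29.6 M per sample was recovered from the deposited values.

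The 2 libraries of a sample differed by about their sampling noise (median chi-square per gene 0.496 to 0.573, expected 0.455, against 1.4 to 12.7 between mice) and were averaged. Genes with at least 0.382 CPM (10 counts) in 3 samples and 15 counts in all were tested, 12512 in number. limma 3.58.1 (R 4.3.3) was fitted with 1 term per group and moderated variances with a mean-variance trend. Every adjusted p is from limma, adjusted over all genes tested by Benjamini-Hochberg and called below 0.05. The code was tested on simulated data. Within a group the labels name separate mice, so p-values measure the spread between samples of different animals in a group. The main fit treated the 2 gates of a mouse as independent samples. Titles tie both gates of a tissue to 1 mouse, and the deviations of the gates of a mouse from their group means correlated by -0.162 to 0.112 over the 7 pairs. Levels in CPM are not per length and are compared between samples, not between genes. Gene positions are those of GENCODE on GRCm38, and promoters those of RefSeq on GRCm38.p6.

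Members, gene lists and tests were chosen with earlier results of these data known. Named genes are those with the most extreme values in each class (mean of at least 10 CPM in a group), the 2 called members of each list with the smallest interaction p, and 15 genes of interest. Myc, Odc1, Nr4a1, Txk, Irf7, Gata3, Cxcl10, Pdgfb and Bst2 were named after their values were seen. Alternatives were other scalings, no filter, another offset, each library alone, precision weights, no trend, a mouse term, and leaving out each sample or mouse. These were 30 fits, and calls kept or lost are counted over the 29 that keep the filter.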

Additional observations from a re-analysis of the deposited data

Results flagged for a closer look

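Each gene given with an interaction value stands out because its OX40 difference was not the same in tumors and in spleens by the test of the interaction itself, which called 1365 genes in all. Values are interactions on the log2 scale, the tumor gate difference less that in spleens.

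Among genes whose gates differed in opposite directions, positive values were those of Spp1 (4.67), Slc11a1 (3.93), Galnt3 (3.63), Myo10 (2.52), Ccl3 (2.34), Prf1 (2.11), Ccl4 (2.09), Satb1 (1.74) and Sqle (1.14). Negative values of this kind were those of Slc7a10 (-6.01), F13a1 (-3.86), Bhlhe40 (-2.28), Spock2 (-2.28), Cables1 (-2.24), Nfkbid (-1.50), Per1 (-1.49), Dusp1 (-1.49), Nr4a3 (-1.36), Cxcr3 (-1.24), Nr4a1 (-1.17) and Gata3 (-0.89).

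Among genes with a called interaction and a gate difference called in tumors only, positive values were those of Acaa1b (2.94), Adamts14 (2.60), Slc4a11 (2.27), Procr (2.17), Cx3cr1 (2.03), Pparg (1.80), Nop58 (1.04), Nop56 (0.997), Idi1 (0.88), Il2ra (0.80), Cycs (0.79) and Ldha (0.78). The same sign, nearer to 0, held for Myc (0.73) and Atp5b (0.47). Negative values of this kind were those of Btk (-4.58), Fam160a1 (-4.24), Gucy1a1 (-4.18), St8sia6 (-3.73), Slc28a2b (-3.58), Eomes (-3.44), Tcf7 (-3.41), Flt3 (-2.18), Fosb (-2.17), Cxcl10 (-2.07), Nrp1 (-1.89) and Ifit3 (-1.80). The same sign, nearer to 0, held for Il18rap (-1.77), Cd8a (-1.72), Itga4 (-1.48), Gbp8 (-1.36), Fos (-1.26), Nfkbiz (-1.16), Il1rl1 (-1.12), Cd274 (-1.11), Cd74 (-1.05), Oas1a (-0.94), Cish (-0.92) and Cd69 (-0.90). The same sign, nearer to 0, held for Slc2a3 (-0.79) and Sigirr (-0.66).

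Among genes with a called interaction and a gate difference called in spleens only, positive values were those of Trpm2 (3.82), Ptgs1 (3.56), Hmox1 (3.40), Cd63 (2.68), Cd5l (2.48), Tmem86a (2.24), Txk (1.10), Ndrg1 (0.95) and Pdk1 (0.62). Negative values of this kind were those of Cxcl2 (-2.90), Ky (-2.01), Mapk8ip1 (-1.99), Areg (-1.95), Bcar1 (-1.83), Frmd5 (-1.65), Klrg1 (-1.36), Cd200r1 (-1.34), Icos (-0.71) and Ctla4 (-0.67).

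Among genes with a shared direction, positive values were those of Clec7a (2.46), Vcam1 (2.14), Clec4n (2.10), Sirpa (1.81), Cd68 (1.68) and Ube2c (0.89). Negative values of this kind were those of Evl (-2.71), Prg4 (-2.55), Klf3 (-2.35), Pik3ip1 (-2.19), Mmp9 (-2.02), Il10 (-1.69), Tnfrsf9 (-1.67), Ccr4 (-1.51), Klf2 (-1.49), Ccr8 (-1.48), Tnfrsf8 (-1.24) and Stat4 (-1.22). The same sign, nearer to 0, held for Il1r2 (-0.88), Irf7 (-0.84), Itgb1 (-0.80), Tnfrsf4 (-0.69) and Odc1 (-0.42).

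Several of these calls were lost in some of the 29 alternatives, by limma with Benjamini-Hochberg adjustment. Calls not treated above were lost for Acaa1b in 2 of them (adjusted p up to 0.0959), Adamts14 in 2 of them (adjusted p up to 0.0948), Slc4a11 in 3 of them (adjusted p up to 0.0901), Procr in 4 of them (adjusted p up to 0.116), Btk in 3 of them (adjusted p up to 0.0807) and Fam160a1 in 20 of them (adjusted p up to 0.182). The same held for Gucy1a1 in 14 of them (adjusted p up to 0.131), Cd5l in 22 of them (adjusted p up to 0.414), Mapk8ip1 in 7 of them (adjusted p up to 0.111), Areg in 2 of them (adjusted p up to 0.062), Vcam1 in 22 of them (adjusted p up to 0.233) and Clec4n in 7 of them (adjusted p up to 0.147). Others lost were Sirpa in 14 of them (adjusted p up to 0.205), Sigirr in 2 of them (adjusted p up to 0.0507), Pdk1 in 16 of them (adjusted p up to 0.137), Flt3 in 3 of them (adjusted p up to 0.0701), Eomes in 18 of them (adjusted p up to 0.159), Cd8a in 5 of them (adjusted p up to 0.128) and Il1rl1 in 13 of them (adjusted p up to 0.235). Low counts limit some of these values. Cd5l was under 3 counts in all 8 tumor samples, so no tumor gate difference could be measured for it and its interaction value depends on the 0.5 added to each count. Eomes was at 0 CPM in all 4 tumor OX40plus samples and under 3 counts in 1 of 4 tumor OX40minus samples, so the size of its value depends on it as well. Btk and Gucy1a1 were under 3 counts in 2 of 4 tumor OX40plus samples and Fam160a1 in 1 of 4.

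Within the groups of 4 tumor samples, 12 values stood apart from the other 3 by Dixon's criterion, which chance meets in about 1 of 20 groups, or 11.4 of the 228 groups of named genes that were searched. The Cd5l and Fam160a1 values were under 3 counts. These were Slc7a10 at 0.476 CPM in the tumor OX40plus sample of mouse 3, Fam160a1 at 0.0379 CPM in the tumor OX40plus sample of mouse 4, Cd5l at 0.0713 CPM in the tumor OX40minus sample of mouse 3 and Bcar1 at 15.7 CPM in the tumor OX40minus sample of mouse 4. Others were Clec7a at 11.7 CPM in the tumor OX40minus sample of mouse 1, Clec4n at 1.49 CPM in the tumor OX40plus sample of mouse 1, P2ry13 at 0.260 CPM in the tumor OX40plus sample of mouse 3 and Il2ra at 884 CPM in the tumor OX40minus sample of mouse 2. The last were Pdk1 at 80.5 CPM in the tumor OX40minus sample of mouse 1, Nop58 at 213 CPM in the tumor OX40plus sample of mouse 4, Txk at 135 CPM in the tumor OX40plus sample of mouse 1 and Txk at 92.8 CPM in the tumor OX40minus sample of mouse 4.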

How the results depend on the processing

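The interaction counts depended most on spleen mice 1 and 2. Leaving out samples or mice in turn gave 462 to 1628 called genes, 140 to 672 more positive and 322 to 956 more negative in tumors, 257 to 644 shared without a called interaction, 30 to 135 shared with one, 358 to 1240 limited to tumors, 45 to 159 limited to spleens and 19 to 58 opposite. The total was 766 without the spleen OX40plus sample of mouse 1, 825 without the spleen OX40minus sample of mouse 2, 462 without spleen mouse 1 and 576 without spleen mouse 2, and 459 of these 462 were also called in the main comparison. More positive calls also fell to 332 without the spleen OX40minus sample of mouse 1, and shared genes with a called interaction to 66 without tumor mouse 3. With the gates of a mouse paired as a block, 960 genes were called, and 911 of the 1365 main calls were kept in the same direction. Genes limited to tumors fell from 1038 to 720. More positive calls fell to 355, the only count to move by over 1.5 times. Fam160a1, Gucy1a1, Cd5l, Vcam1, Atp5b, Cycs, Pdk1, Eomes and Odc1 lost their call in that fit, and no other named gene changed its call. Without the mean-variance trend 64 genes were shared with a called interaction. Under log2(CPM + 1) the interaction of P2ry13 turned from -0.91 to 1.533 and that of Nr1h3 from -0.24 to 2.213. Neither was called as deposited, and both were called with that offset (limma adjusted p = 0.00572 and 0.000425). The same held for Gdf15 (1.16 to 2.236, adjusted p = 0.00183) and Slc40a1 (0.80 to 3.068, adjusted p = 0.0107). As deposited these genes were of shared direction without a called interaction. Each was under 3 counts in 3 or 4 of 4 tumor OX40plus samples. Other scalings gave 1408 and 1468 calls, 49.9% and 31.9% of them more positive in tumors against 41.5%. Of 103 named genes called, 77 kept the call in all 29 alternatives that keep the filter. List medians moved by more than their spread in 60 of 1170 refits, and the sign of the median turned for the hypoxia, B cell, neutrophil, endothelial and erythroid or platelet lists. The cause of these changes was not tested. Low genes are limited by depth: below 3 counts, 0.104 to 0.13 CPM, a level was not detectable.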
